A study of Mus musculus with 18 samples.

Results

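The comparison was of p65 knock-out (p65 KO) mouse embryonic fibroblasts after 90 min of tumour necrosis factor alpha (TNF) with the same line after 45 min. The members were taken from the genotype and treatment in the sample labels, which gave 4 of the 18 libraries of the series, 2 at each time. The series covers 3 immortalised fibroblast lines, namely wild type, p65 KO and IKK2 KO (an IκB kinase beta knock-out), each untreated or given TNF at 10 ng/ml for 45 or 90 min. All cells were grown in DMEM with 10% FBS, and every line was immortalised. Each genotype is represented by 1 line, so that genotype and line cannot be told apart, and the labels do not say whether the 2 libraries of a group came from separate cultures. The p-values below therefore measure only the spread between libraries of the same group, estimated over all 9 groups of the series. That spread may be technical. Libraries are called first and second in the order of the table's columns, which is a name and not a replicate number.

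p65, encoded by Rela, is an NF-κB subunit with a transactivation domain, and it drives most of the early transcription after TNF. In cells that have it, IκB kinase releases p65 from its inhibitors within minutes, and its targets include those inhibitors and Tnfaip3 (A20), which shut the signal off again. TNF also activates the MAP kinases JNK, p38 and ERK, which act on AP-1, ATF and serum response factors, and later waves of transcription follow from secreted factors. The step from 45 to 90 min in a line without p65 shows what moved in that interval when this subunit was missing.

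Levels are given in CPM, a count scaled to library size. Rela checked the genotype. It stood at 5.33 and 5.80 CPM at 45 min and at 6.34 and 6.55 CPM at 90 min in p65 KO, against 95.7 and 92.3 CPM at 45 min in wild type, and its change from 45 to 90 min in p65 KO was 0.20 ± 0.11 (log2, standard error, adjusted p = 0.48). Ikbkb, which encodes the kinase named in the other knock-out, was 40.2 and 42.0 CPM at 45 min in IKK2 KO beside 45.8 and 43.9 CPM in p65 KO, so its count over the whole gene did not check that label. The p65 KO libraries held 1.86e+07 and 2.32e+07 counts at 45 min and 2.34e+07 and 2.27e+07 counts at 90 min. Of 8 fibroblast markers, 7 reached 10 CPM and Thy1 was at 0. Summed fibroblast markers at 45 min were 5021 to 5072 CPM in p65 KO. They were 11050 to 11357 CPM in wild type and 10034 to 10134 CPM in IKK2 KO. The epithelial, endothelial and adipocyte lists had no marker at 1 CPM, and the myeloid, muscle and neural lists had 1 (Cd14), 1 (Mylpf) and 2 (Tubb3 and Map2). Summed neural markers in p65 KO were 43.0 and 44.8 CPM at 45 min and 44.6 and 44.8 CPM at 90 min, and summed myeloid markers 12.2 to 13.0 and 12.4 to 12.5 CPM. At 45 min in wild type these sums were 31.3 to 33.7 and 8.11 to 10.5 CPM. In IKK2 KO they were 3.24 to 3.67 and 4.86 to 5.11 CPM.

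Between 45 and 90 min, 371 genes rose and 74 fell in p65 KO, out of 16322 tested. These are 2.27% and 0.453% of all genes tested, and 2.73% together, at an adjusted p under 0.05 (edgeR's quasi-likelihood test with Benjamini-Hochberg adjustment over all genes). The changes were small. The middle 50% of all genes lay between −0.07 and 0.10 on the log2 scale, and 41 of the called genes (0.251% of those tested) changed at least 2-fold, 39 of them upwards. Of these 41 genes, 35 were not protein-coding and 6 were. The number of genes called was 164 to 226 with any 1 of the 4 libraries left out, and 174 with DESeq2. Those that fell numbered 14 to 39 with a library left out, 17 with DESeq2 and 145 (beside 471 that rose) with only the 6 p65 KO libraries. Of 75 called genes named by a rule of size or list membership, 30 kept their call in every alternative fit.

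Genes for secreted inflammatory signals were among the largest protein-coding rises. Lif, leukemia inhibitory factor, which signals through the gp130 receptor chain (gene ENSMUSG00000034394, GRCm38 chromosome 11, 4257557 to 4272514), was at 12.1 CPM in both libraries at 45 min and at 22.6 and 23.54 CPM at 90 min. Lif was lower still in the untreated libraries, at 6.30 and 5.86 CPM. Its change was 0.93 ± 0.08 on the log2 scale (adjusted p = 1.8e-11). Cxcl10, the interferon-inducible chemokine that binds CXCR3, was at 2.09 and 2.66 CPM at 45 min and at 5.204 and 4.63 CPM at 90 min, a change of 1.03 ± 0.16 (adjusted p = 4.1e-05). Ccl2, the monocyte chemoattractant, was at 2.74 and 2.66 CPM and then at 5.01 and 5.49 CPM, a change of 0.96 ± 0.14 (adjusted p = 1.05e-05). In both chemokines the 2 times did not overlap, which the rule for naming them by size required. Both were scarce, at a few CPM. The chemokine list had 10 of 19 members abundant enough to test. Of these, 4 rose and 1 fell (50%, beside 2.73% of all genes tested). Cx3cl1 (0.20 ± 0.04) and Cxcl1 (0.31 ± 0.07) were the others that rose, and Cxcl12, a constitutive fibroblast chemokine, was the one that fell (−0.12 ± 0.03). The list's median was 0.25, against 0.00 over all genes tested. The calls of Cxcl1, Cx3cl1 and Cxcl12 were lost with 1 library left out, Cx3cl1 without the first 45-min library (adjusted p = 0.061) and Cxcl1 without either 45-min library or the first 90-min library (adjusted p = 0.071, 0.18 and 0.31). Cxcl12 lost its call without the second 45-min or first 90-min library (0.23 and 0.26).

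**Figure D1:**
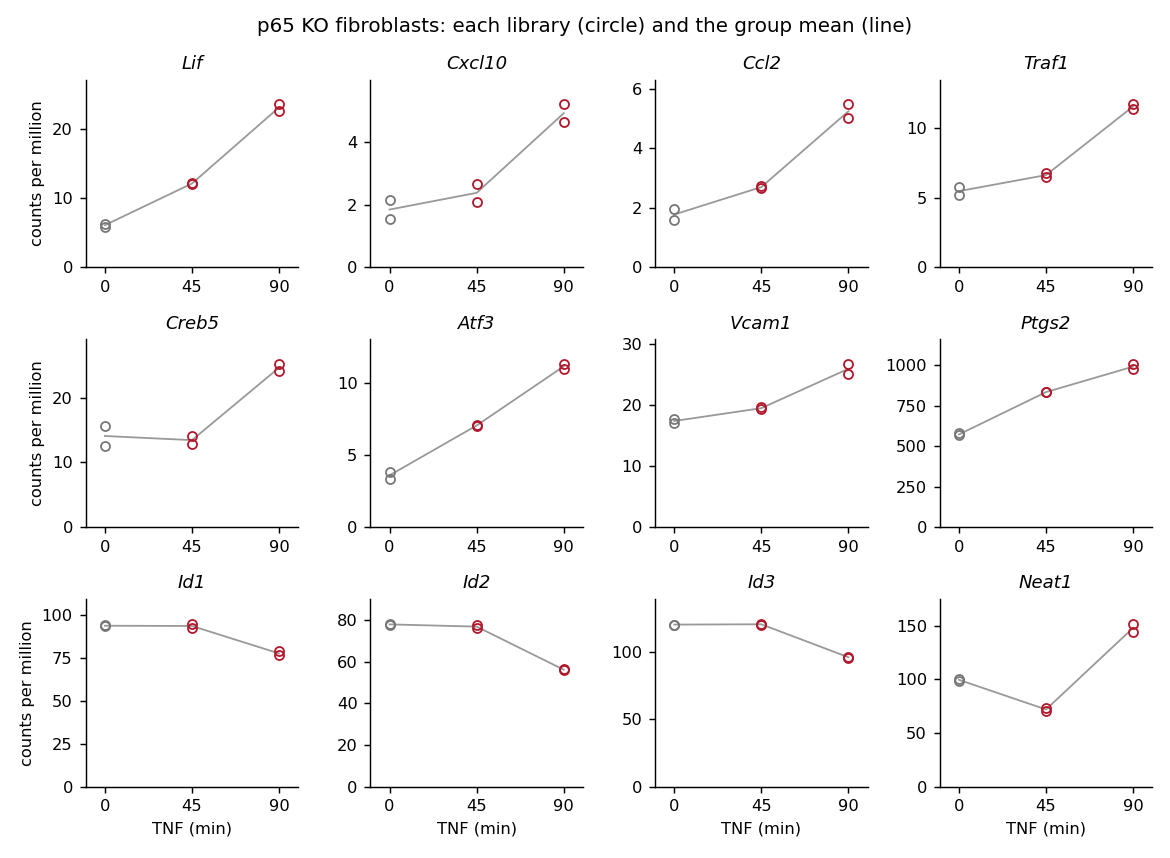
Levels of 12 genes in p65 KO fibroblasts, in CPM against minutes of TNF; circles are libraries (grey untreated, red treated) and the line joins the means. Lif, Cxcl10, Ccl2, Traf1, Creb5 and Atf3 were highest at 90 min, Id1, Id2 and Id3 were level until 45 min and lower at 90 min, and Neat1 was lowest at 45 min.

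Among cytokines and their receptors, 3 of 15 tested members rose and 0 fell (20%, beside 2.73% of all genes tested). Beside Lif these were Il1rl1, the receptor of interleukin-33, at 90.2 and 87.2 CPM and then 107 and 109 CPM (0.29 ± 0.04, adjusted p = 1.8e-06), and Il6st, which encodes gp130, the shared receptor chain through which Lif acts (0.16 ± 0.03, adjusted p = 0.002). Il6st lost its call without the first 45-min library (adjusted p = 0.18) or the first 90-min library (adjusted p = 0.052). Lifr, the other receptor chain of Lif, had a change of 0.07 ± 0.05 and was not called.

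Adhesion and inflammatory effectors rose in 5 of 12 tested members, with 0 falling and a median of 0.14. That was 41.7%, beside 2.73% of all genes tested. Vcam1, the adhesion molecule that binds leukocyte integrins, was at 19.3 and 19.7 CPM and then at 25.2 and 26.7 CPM (0.41 ± 0.06, adjusted p = 1.35e-05). Ptgs2, the inducible cyclooxygenase of prostaglandin synthesis, was already at 834 and 833 CPM at 45 min and reached 974 and 1007 CPM (0.25 ± 0.02, adjusted p = 5.3e-10). Plau, the urokinase plasminogen activator, and Plaur, its receptor, had changes of 0.15 ± 0.03 and 0.18 ± 0.04. Plaur lost its call without the second 45-min library (adjusted p = 0.13), and Plau without either 45-min library or the second 90-min library (adjusted p = 0.082, 0.092 and 0.13).

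Among the components of the TNF receptor complex and IκB kinase, 1 of 20 tested members rose and 0 fell. This was Traf1, an adaptor that binds TNF receptor 2 and the cIAP ubiquitin ligases, at 6.48 and 6.77 CPM and then at 11.4 and 11.7 CPM (0.80 ± 0.10, adjusted p = 8e-07). It was the one member of this list to be called (5%, beside 2.73% of all genes tested), and the list's median was 0.03. The receptor genes Tnfrsf1a and Tnfrsf1b had changes of −0.07 ± 0.04 and −0.13 ± 0.08, and the kinase Ripk1 had 0.00 ± 0.04, none of them called. Of the 10 survival genes tested, 1 rose (10%, beside 2.73% of all genes tested). It was Ier3, a stress-inducible regulator of apoptosis, which went from 313 and 312 CPM to 362 and 359 CPM (0.20 ± 0.03, adjusted p = 3.5e-06).

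Some of the remaining NF-κB subunits rose slightly, with 60% of the subunit list called, beside 2.73% of all genes tested. Of the 5 subunit genes, 3 were called higher and 0 lower: Relb at 15.2 and 14.3 CPM and then 18.6 and 17.6 CPM (0.30 ± 0.07), Rel at 27.0 and 26.0 CPM and then 31.5 and 31.9 CPM (0.26 ± 0.06), and Nfkb2 (0.11 ± 0.03). Relb pairs with the p52 product of Nfkb2 in the non-canonical pathway, and Rel encodes c-Rel. Nfkb1, which encodes p105 and p50, had a change of 0.10 ± 0.03 (adjusted p = 0.11). These calls were not stable: Rel was lost without the second 45-min library (adjusted p = 0.13) or the second 90-min library (0.068), Relb without the second 45-min library (0.25) or the first 90-min library (0.15), and Nfkb2 without any 1 of the 4 (up to 0.36).

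The inhibitors of NF-κB were nearly level. Of 13 tested members, 1 was called higher and 0 lower (7.69%, beside 2.73% of all genes tested), with a median of 0.09. Nfkbie, which encodes IκB epsilon, was at 4.33 and 4.47 CPM and then at 5.99 and 7.82 CPM (0.64 ± 0.14, adjusted p = 0.003). Its 90-min libraries were apart from each other, and the call was lost without the second of them (0.44, adjusted p = 0.23) or without the first or second 45-min library (adjusted p = 0.059 and 0.062). Nfkbia, which encodes IκB alpha, was at 55.5 and 54.2 CPM at 45 min and at 61.2 and 58.1 CPM at 90 min (0.12 ± 0.04, adjusted p = 0.12). Tnfaip3 was at 18.7 and 19.0 CPM and then at 20.7 and 20.1 CPM (0.12 ± 0.07, adjusted p = 0.46). In wild type the same step was −1.86 ± 0.03 for Nfkbia, from 377 and 368 CPM to 105 and 100.1 CPM, and −3.52 ± 0.03 for Tnfaip3, from 552 and 563 CPM to 50.2 and 46.8 CPM. The difference between the lines in this step was 1.99 ± 0.05 for Nfkbia (adjusted p = 7.4e-30) and 3.64 ± 0.08 for Tnfaip3 (adjusted p = 2.7e-33).

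RefSeq promoters (GRCm38.p6) were matched for 25 of the 30 genes named for the largest changes, and the 250 bases before the start were searched on both strands for NF-κB and CArG (each by its usual degenerate motif), for AP-1 by the letters TGANTCA, for CRE by TGACGTCA and for TATA by TATAAA. The 3 genes below are those named for a rise that held the NF-κB motif, and each of them also held the AP-1 motif. Creb5 is shown as the one that held the CRE motif. Capitals mark the matches, NF-κB and AP-1 in the first 3 and CRE in Creb5. In Cxcl10 the NF-κB motif matched at −159 and, in overlapping matches, at −104 and −103, with AP-1 at −74, counting the base before the start as −1. In Lif they stood at −178 and −228, in Nfkbie at −106 and −156, and in Creb5 the CRE began at −45.
Cxcl10, chr5:92348890-92349139, minus strand: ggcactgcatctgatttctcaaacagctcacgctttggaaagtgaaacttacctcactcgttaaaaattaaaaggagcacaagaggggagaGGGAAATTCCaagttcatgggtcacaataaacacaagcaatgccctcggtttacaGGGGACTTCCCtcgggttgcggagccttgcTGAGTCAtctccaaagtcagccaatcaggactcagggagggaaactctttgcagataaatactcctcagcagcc
Lif, chr11:4257318-4257567, plus strand: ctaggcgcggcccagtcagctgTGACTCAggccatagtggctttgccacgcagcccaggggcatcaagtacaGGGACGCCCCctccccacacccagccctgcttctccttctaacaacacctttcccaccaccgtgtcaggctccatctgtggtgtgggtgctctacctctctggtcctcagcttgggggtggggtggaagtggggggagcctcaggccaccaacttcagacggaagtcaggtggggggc
Nfkbie, chr17:45555450-45555699, plus strand: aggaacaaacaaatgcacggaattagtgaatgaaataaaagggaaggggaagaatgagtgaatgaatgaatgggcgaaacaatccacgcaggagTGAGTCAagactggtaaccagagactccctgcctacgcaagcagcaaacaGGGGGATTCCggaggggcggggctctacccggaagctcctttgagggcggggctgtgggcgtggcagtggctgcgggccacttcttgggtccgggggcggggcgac
Creb5, chr6:53287053-53287302, plus strand: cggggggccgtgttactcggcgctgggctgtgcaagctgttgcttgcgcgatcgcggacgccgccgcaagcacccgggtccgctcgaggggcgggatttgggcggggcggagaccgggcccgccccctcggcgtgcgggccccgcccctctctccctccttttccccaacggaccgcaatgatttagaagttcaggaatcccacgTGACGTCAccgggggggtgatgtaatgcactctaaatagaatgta
Of the 12 promoters of genes named for a rise, 3 held NF-κB, 3 AP-1, 1 CRE, 1 TATA and 1 CArG. Of the 13 for a fall, 2 held TATA and 0 held any of the others. Among 10157 promoters of tested genes the shares were 8.67%, 4.17%, 2.75%, 6.21% and 1.24%. Over all promoters of genes called higher (231) the NF-κB motif was in 10.8%, AP-1 in 3.03% and CRE in 5.19%. Over all those of genes called lower (51) NF-κB was in 5.88%, AP-1 in 1.96% and CRE in 0%. Ccl2 and Neat1 were without an entry. A match is a description of these letters and says nothing of binding.

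AP-1 and ATF factors rose in 5 of 13 tested members, with 0 falling and a median of 0.13. That was 38.5%, beside 2.73% of all genes tested. Atf3, a stress-inducible factor that often represses its targets, was at 7.12 and 7.01 CPM at 45 min and at 11.3 and 11.01 CPM at 90 min (0.66 ± 0.09, adjusted p = 7.4e-06), with untreated libraries at 3.33 and 3.86 CPM. Maff (0.23 ± 0.06), Fosl1 (0.19 ± 0.04), Mafg (0.15 ± 0.04) and Fosl2 (0.13 ± 0.03) were the others. Maff lost its call without either 45-min or the first 90-min library (adjusted p up to 0.41), Fosl1 without the second library of either time (up to 0.25), Mafg without any 1 of the 4 (up to 0.30) and Fosl2 without the first 45-min library (0.069). Outside the list, 2 factors of the CREB family were named by the rule: Creb5, at 14.0 and 12.8 CPM and then 25.2 and 24.1 CPM (0.88 ± 0.08, adjusted p = 3.2e-11), and Crem (0.51 ± 0.12, adjusted p = 0.0058), whose inducible products repress CRE-dependent transcription. Creb5 was level until 45 min, with untreated libraries at 12.6 and 15.6 CPM. Crem lost its call without either 45-min library (adjusted p = 0.055 and 0.12) or the second 90-min library (0.13).

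Most of the immediate-early factors were near their 45-min levels. Of 25 EGR, NR4A, KLF and IER genes, 3 rose and 2 fell (20%, beside 2.73% of all genes tested), with a median of 0.01. Ier3, which also rose, is counted with the survival genes above and not here. Ier5 rose by 0.31 ± 0.05 and Klf7 by 0.22 ± 0.05, Klf6 by 0.12 ± 0.03. Klf10, a factor induced early by TGF-β, fell from 48.4 and 49.1 CPM to 39.0 and 38.2 CPM (−0.34 ± 0.04, adjusted p = 1.1e-06). Egr1, the classic immediate-early factor of the ERK pathway, was at 41.4 and 43.9 CPM and then at 37.5 CPM in both libraries (−0.19 ± 0.05, adjusted p = 0.012). Klf10 and Ier5 kept their calls in every alternative. Klf7 lost its call without either 45-min library or the first 90-min library (adjusted p up to 0.084), Klf6 without any 1 of the 4 (up to 0.355), and Egr1 without the second 45-min or either 90-min library (up to 0.36). In wild type and IKK2 KO Egr1 fell by 2.44 ± 0.03 and 3.07 ± 0.04, and the steps differed from p65 KO by 2.25 ± 0.05 (adjusted p = 3.65e-31) and 2.88 ± 0.06 (adjusted p = 2.5e-33).

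Inhibitors of MAP kinases rose in 4 of 19 tested members, with 0 falling and a median of 0.08. That was 21.1%, beside 2.73% of all genes tested. Dusp16, a phosphatase that acts on JNK and p38, was at 51.7 and 47.4 CPM and then at 75.01 and 75.6 CPM (0.61 ± 0.05, adjusted p = 4.55e-13). Dusp10, of the same specificity, rose by 0.38 ± 0.07 and Dusp5, which acts on ERK, by 0.23 ± 0.04. Errfi1, an inhibitor of the EGF receptor, rose by 0.14 ± 0.04. Dusp10 lost its call without the first 45-min library (adjusted p = 0.078) and Errfi1 without the first 45-min or either 90-min library (up to 0.55). None of 17 p38 and JNK pathway genes was called (1 higher and 1 lower at an unadjusted p under 0.05), nor any of 13 RNA-decay factors (5 and 0) or 15 SOCS and STAT genes (4 and 0), all by edgeR, and DESeq2 called 0 in each of these lists. Over all genes tested 2.73% were called by edgeR.

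Some secreted growth factors rose. Of 22 secreted growth and vascular factors, 5 rose and 0 fell (22.7%, beside 2.73% of all genes tested), with a median of 0.15. Fgf7, a growth factor made by fibroblasts that acts on epithelium, was at 79.5 and 76.5 CPM and then at 103 and 108 CPM (0.44 ± 0.04, adjusted p = 2e-11). Pdgfb (0.43 ± 0.11), Hgf (0.27 ± 0.07), Ereg (0.25 ± 0.04) and Vegfa (0.19 ± 0.04) were the others. Fgf7 and Ereg kept their calls in every alternative, while Pdgfb lost its call without the second 45-min or either 90-min library (up to 0.50), Hgf without either 45-min or the second 90-min library (up to 0.32), and Vegfa without either 45-min library (adjusted p = 0.10 and 0.14) or the first 90-min library (0.24). Inhba, which encodes the activin A subunit, was at 273 and 274 CPM and then at 357 and 369 CPM (0.41 ± 0.03, adjusted p = 1.1e-14).

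The inhibitors of differentiation fell. Id1, Id2 and Id3 encode helix-loop-helix proteins without a DNA-binding region that are direct targets of BMP and SMAD signalling. Id2 (gene ENSMUSG00000020644, GRCm38 chromosome 12, 25093799 to 25097140) was at 76.1 and 77.6 CPM at 45 min and at 56.4 and 56.0 CPM at 90 min, 26.9% lower (log2 −0.45 ± 0.04, adjusted p = 5.5e-10). Id3 was at 120.9 and 120.1 CPM and then at 95.7 and 96.5 CPM (−0.33 ± 0.03, adjusted p = 9.5e-09). Id1 was at 94.7 and 92.1 CPM and then at 78.6 and 76.2 CPM (−0.27 ± 0.04, adjusted p = 4.9e-05). In each of the 3 genes both 90-min libraries were below both 45-min libraries and below both untreated libraries. For Id2 the separation from the 45-min libraries was required by the rule that named it by size. The 45-min and untreated libraries of the 3 genes lay together. All 3 kept their calls in every alternative fit. Id4 was at 48.0 and 46.9 CPM and then at 42.6 and 45.2 CPM and was not called (adjusted p = 0.27).

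In all, 5 of 20 tested TGF-β and BMP targets fell and 1, Inhba, rose, with a list median of −0.14. That was 30% called, beside 2.73% of all genes tested. The other 2 that fell were Atoh8, a helix-loop-helix factor, and Ski, a repressor of SMAD signalling. Atoh8 was at 9.46 and 13.0 CPM and then at 8.61 and 8.11 CPM (−0.45 ± 0.11, adjusted p = 0.010). Its fall rested on the second 45-min library: without it the change was −0.17 (adjusted p = 0.73), and it also missed the threshold without the first or second 90-min library (0.051 and 0.15). Ski (−0.18 ± 0.04, adjusted p = 0.0024) missed it without the second 45-min library (0.069) or the second 90-min library (0.051). The inhibitory SMAD genes Smad6 (−0.31 ± 0.10, adjusted p = 0.093) and Smad7 (−0.12 ± 0.04, adjusted p = 0.14) were not called.

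In the other lines most of this list rose in the same step. Of the 20 genes, 15 rose and 1 fell in wild type (median 0.64), and 12 rose and 2 fell in IKK2 KO (median 0.69), beside 8.08% and 10.1% of all genes called higher and 6.22% and 5.59% called lower in those lines. For Id1 the step was 0.65 ± 0.04 in wild type, from 84.3 and 81.4 CPM to 128 and 132 CPM, and 0.98 ± 0.04 in IKK2 KO. Its difference from p65 KO was −0.92 ± 0.06 against wild type (adjusted p = 1.3e-15) and −1.24 ± 0.06 against IKK2 KO (adjusted p = 1.4e-20). For Id2 the differences were −0.75 ± 0.07 (adjusted p = 7.8e-11) and −1.73 ± 0.07 (adjusted p = 1.6e-23), and for Id3 −0.96 ± 0.05 (adjusted p = 1.7e-19) and −0.84 ± 0.06 (adjusted p = 1.7e-15). Smad7 differed by −0.83 ± 0.05 and −0.85 ± 0.06 (adjusted p = 8e-16 and 1.2e-14). Over the list, the p65 KO step was lower than that of wild type in 14 genes and higher in 1, and lower than that of IKK2 KO in 12 and higher in 0. Over all genes 4.05% and 4.36% were called lower in these differences, and 8.12% and 7.06% in either direction. The differences of Id1, Id2, Id3 and Smad7 from both lines passed the threshold in each of the 16 alternative fits.

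**Figure D2:**
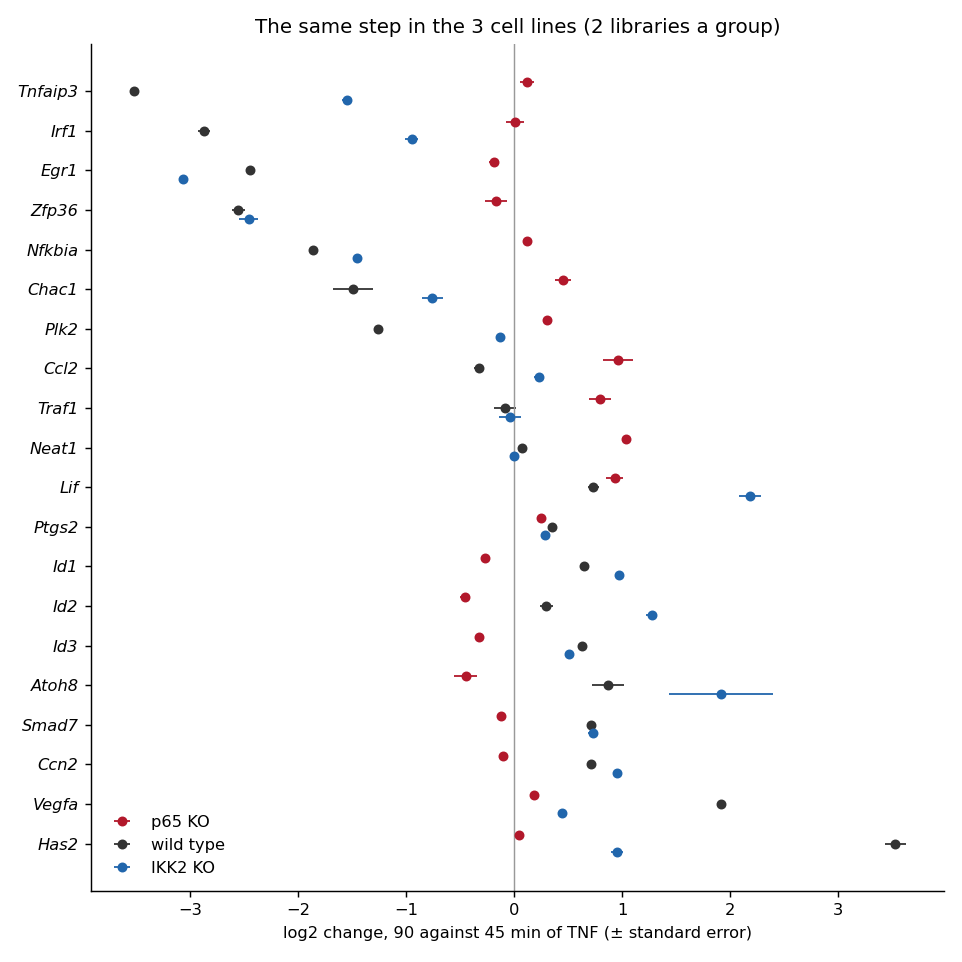
Change from 45 to 90 min of TNF (log2, with standard error) of 20 genes in p65 KO (red), wild type (black) and IKK2 KO (blue), 2 libraries a group. Tnfaip3, Nfkbia, Egr1 and Zfp36 lay near 0 in p65 KO and fell in the other lines, and Id1, Id2 and Id3 fell in p65 KO and rose in the others.

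YAP and SRF targets stayed level, with 5% called, beside 2.73% of all genes tested. Of 20 tested, 0 rose and 1 fell, with a median of −0.02, and that one, Amotl2 (−0.13 ± 0.03, adjusted p = 0.024), lost its call without any 1 of the 4 libraries (up to 0.31). Ccn2, a matricellular protein, was at 61.0 and 58.1 CPM and then at 52.5 and 58.6 CPM (−0.10 ± 0.04, adjusted p = 0.29), and its differences from wild type and IKK2 KO were −0.81 ± 0.05 and −1.05 ± 0.05 (adjusted p = 7.9e-16 and 2e-19). In wild type 14 of the 20 rose and in IKK2 KO 15, with 1 falling in each. Over all genes 8.08% and 10.1% were called higher in those lines, and 6.22% and 5.59% lower. The p65 KO step was lower than in wild type in 10 and higher in 1, and lower than in IKK2 KO in 13 and higher in 1. Over all genes 4.05% and 4.36% were called lower in these differences.

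A few stress-response genes rose slightly. Of 18 genes of the integrated stress response and ER stress, 4 rose and 0 fell in p65 KO (median 0.08), against 2 and 8 in wild type and 0 and 9 in IKK2 KO. Over all genes 2.27% rose and 0.453% fell in p65 KO, 8.08% and 6.22% in wild type, and 10.1% and 5.59% in IKK2 KO. Chac1, an ATF4 target that degrades glutathione, was at 17.5 and 18.04 CPM and then at 26.3 and 22.4 CPM (0.45 ± 0.07, adjusted p = 4.6e-05). Slc7a11, the cystine transporter, was at 31.5 and 34.1 CPM and then at 41.1 and 45.1 CPM (0.39 ± 0.06, adjusted p = 1.2e-05). Both kept their calls in every alternative, while Atf4 (0.11 ± 0.03) and Herpud1 (0.16 ± 0.04) lost theirs without any 1 of the 4 libraries (up to 0.20 and 0.27). Chac1 fell by 1.49 in wild type and by 0.76 in IKK2 KO, and the differences were 1.94 ± 0.20 and 1.21 ± 0.12 (adjusted p = 3.4e-10 and 2.25e-10). Over the list the p65 KO step was higher than that of wild type in 9 genes and lower in 1, and higher than that of IKK2 KO in 10 and lower in 0, against 4.07% and 2.70% of all genes called higher.

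Among p53 and stress arrest genes, 3 of 20 rose and 0 fell (15%, beside 2.73% of all genes tested). Plk2, a polo-like kinase of the stress response, was at 192 and 196 CPM and then at 239 and 241 CPM (0.31 ± 0.03, adjusted p = 1.6e-09) and kept its call in every alternative. Gadd45a (0.41 ± 0.12) and Plk3 (0.31 ± 0.08) lost theirs without any 1 of the 4 libraries (up to 0.38 and 0.32). Cdkn1a, the p53 target that arrests the cell cycle, was at 5.58 and 5.68 CPM and then at 6.22 and 6.14 CPM and was not called.

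Several other lists had medians close to 0. Over all genes tested 2.73% were called. No gene was called among 13 heat shock genes (2 higher and 0 lower at an unadjusted p under 0.05), 20 interferon-stimulated genes (1 and 1), 20 SWI/SNF subunits (0 and 3) or 26 cell cycle genes (1 and 5), and DESeq2 also called 0 in each. Cxcl10 is kept in the chemokine list, so its rise stood beside 20 interferon-stimulated genes with none called and a median of 0.07. Of the 23 cholesterol synthesis genes 2 rose, among them Hsd17b7, lost without the first 45-min or second 90-min library (adjusted p up to 0.42). Of 16 clock genes 1 rose (Nfil3, 0.44 ± 0.08, lost without the second 45-min library, adjusted p = 0.092), of 10 NRF2 targets 1 (Slc7a11), and of 16 histone genes 1 fell (Hist1h1b, lost with DESeq2 and without any 1 of the 4 libraries, adjusted p up to 0.20). Vim and Tgfbi were the 2 of 20 collagen and fibroblast genes that fell, by 0.10 and 0.13, Vim losing its call without any 1 of the 4 libraries (up to 0.16) and Tgfbi without the second 45-min or either 90-min library (up to 0.36).

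**Figure D3:**
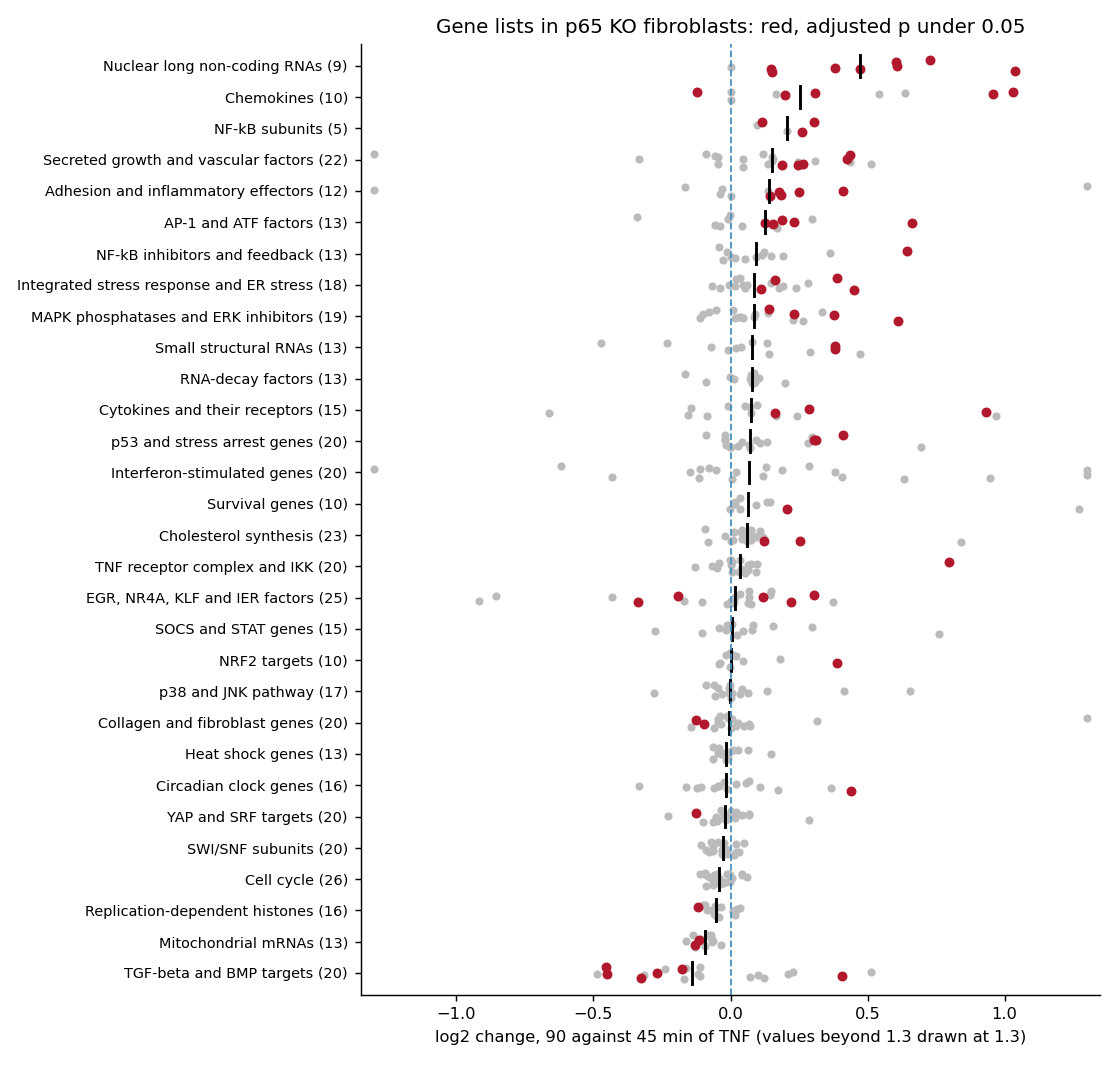
Change from 45 to 90 min (log2) of each tested member of 30 gene lists in p65 KO fibroblasts, with list size in brackets; red points passed the threshold, black bars are list medians and the dashed line is the median of all genes. Nuclear long non-coding RNAs and chemokines had the highest medians, 0.47 and 0.25, and TGF-β and BMP targets the lowest, −0.14.

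Nuclear long non-coding RNAs rose in 8 of 9 tested members, with 0 falling and a median of 0.47. That was 88.9%, beside 2.73% of all genes tested. Neat1, the scaffold of nuclear paraspeckles (gene ENSMUSG00000092274, GRCm38 chromosome 19, 5824708 to 5845478), was at 70.6 and 73.4 CPM at 45 min and at 144 and 152 CPM at 90 min (1.04 ± 0.04, adjusted p = 1.5e-22). Kcnq1ot1, an imprinted antisense transcript, was at 82.5 and 85.3 CPM and then at 136 and 143 CPM (0.73 ± 0.05), and Xist, the RNA of the inactive X chromosome, at 361 and 356 CPM and then at 535 and 557 CPM (0.61 ± 0.03). Malat1, of nuclear speckles, was at 1388 and 1421 CPM and then at 1804 and 1860 CPM (0.38 ± 0.04). In these 4 RNAs the 45-min libraries were the lowest of the line, with untreated Neat1 at 100.25 and 99.0 CPM and untreated Xist at 472 and 483 CPM. In wild type 1 of the 9 rose (Dnm3os) and the median was −0.03, and in IKK2 KO 3 rose and 1 fell, with a median of 0.12. Over all genes 8.08% and 10.1% were called higher in those lines, and 6.22% and 5.59% lower. Xist, 1 of the 9, had at most 3 counts in a group of IKK2 KO. Neat1's step differed from wild type by 0.96 ± 0.05 (adjusted p = 1.3e-18) and from IKK2 KO by 1.04 ± 0.05 (adjusted p = 1.1e-19). Dnm3os (0.61 ± 0.08) differed from wild type by 0.02 ± 0.08 (adjusted p = 0.98). Gas5 and Snhg1 had the smallest called rises, 0.15 each, and lost them, Gas5 without the first 45-min or either 90-min library (adjusted p up to 0.39) and Snhg1 without any 1 of the 4 (up to 0.40), as did Mir17hg without the second 90-min library (0.074). DESeq2 called 6 of the list.

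By their median, but not by their summed counts, features annotated inside introns moved in the same direction as these RNAs. Of the 371 genes that rose, 278 were protein-coding and 93 were not, and 50 were non-coding features on the same strand within an intron of a protein-coding gene. The 1344 tested features of that kind had a median of 0.43, with 50 called higher and 1 lower, and the class of unconfirmed transcripts (TEC, mostly single-exon models) had a median of 0.50, with 50 higher and 0 lower of 989. Protein-coding genes had a median of −0.00. The shares called were 3.79% of intronic features, 5.06% of TEC and 2.82% of protein-coding genes, beside 2.73% of all genes tested. The summed share of the intronic features in all counts fell, from 0.452% and 0.441% at 45 min to 0.403% and 0.418% at 90 min. That of TEC rose, from 0.065% and 0.064% to 0.086% and 0.088%. In the same step these intronic features had a median of 0.01 in wild type and 0.21 in IKK2 KO. From untreated to 45 min in p65 KO, a comparison that uses the same 45-min libraries, their median was −0.27. Counts on the mitochondrial genome were 9.65% and 9.63% of all counts at 45 min and 7.98% and 9.004% at 90 min. The part of intronic reads, RNA make-up or libraries in the rise of the nuclear RNAs, and of the protein-coding genes called with them, was not tested. Without mitochondrial, small nuclear, TEC and intronic features, 393 genes were called, 324 higher and 69 lower, and 375 of them were among the 445. This fit was chosen after the data were seen.

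**Figure D4:**
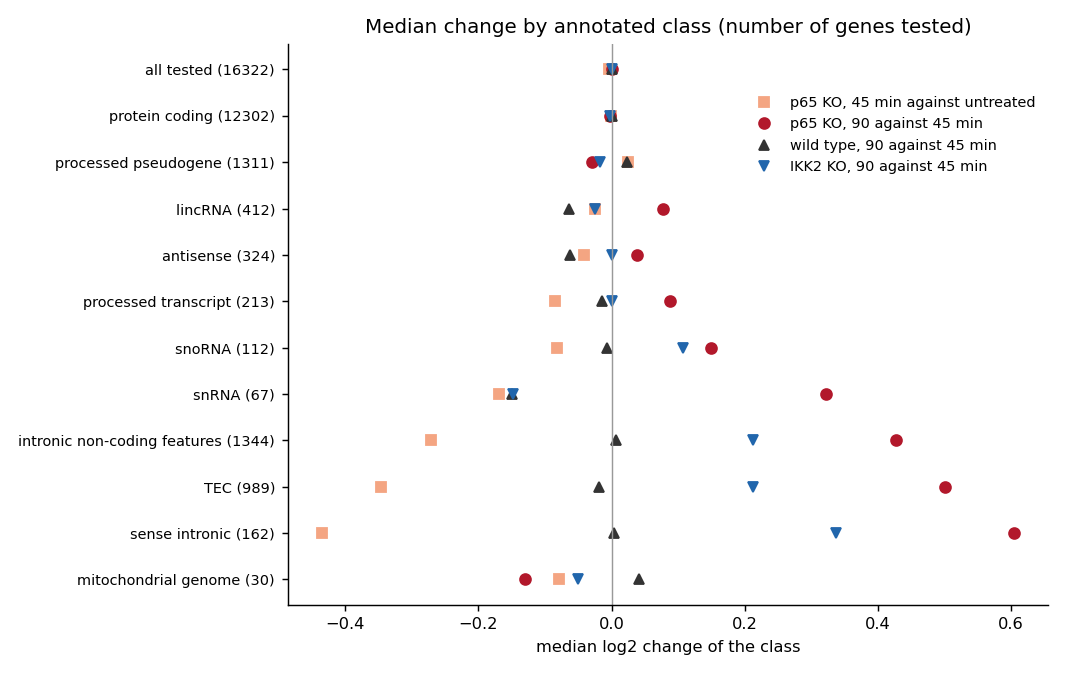
Median log2 change of each annotated gene class, with the number of genes tested in brackets, for p65 KO at 45 min against untreated (squares), and for 90 against 45 min in p65 KO (circles), wild type (upward triangles) and IKK2 KO (downward triangles). Intronic, TEC and sense intronic features lay at 0.43, 0.50 and 0.60 in p65 KO at 90 against 45 min, and protein-coding genes at 0 in every comparison shown.

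The protein-coding genes called higher were long. Their gene span had a median of 48.2 kb, against 13.5 kb for those called lower and 24.4 kb for all tested. Their summed exon length had the same order, with medians of 7.81, 3.70 and 4.53 kb. In the longest quartile of genes 124 of 3076 rose and 9 fell, and in the shortest 43 and 32 of 3076. The quartile medians were close to each other, at 0.01 and −0.01. The part of gene span or exon length in these counts was not tested.

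Most of the other genes named for a fall were scarce. The 15 genes named for the largest falls ranged from −0.34 to −0.63 on the log2 scale. Mylip, the ubiquitin ligase of the LDL receptor, was at 7.92 and 8.38 CPM and then at 5.40 and 5.45 CPM (−0.59 ± 0.11, adjusted p = 0.00053), a call kept in every alternative. Tec, a non-receptor tyrosine kinase, was at 7.57 and 7.85 CPM and then at 5.40 and 5.24 CPM (−0.54 ± 0.12), and Alkbh2, a DNA repair enzyme, at 3.44 and 3.06 CPM and then at 2.23 and 1.92 CPM (−0.63 ± 0.18). Transcription factors were Sp8 (−0.44), Gata2 (−0.38), Hoxd9 (−0.37) and the vitamin D receptor Vdr (−0.39), and Lfng (−0.43) encodes a glycosyltransferase that modifies Notch. Of the 15, only Mylip, Id2 and Klf10 kept their calls in every alternative. Tec lost its call without the second 45-min library (adjusted p = 0.14) or either 90-min library (0.055 and 0.090), and Sp8 without the first 90-min library (0.065). Lfng lost it without either 45-min or the first 90-min library (up to 0.12) and Gata2 without either 45-min or the second 90-min library (up to 0.086). Alkbh2, Hoxd9 and Vdr lost it without any 1 of the 4 libraries (up to 0.32, 0.46 and 0.43).

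Fewer genes passed the threshold in this step than in the other lines. In all 2334 genes (14.3% of those tested) changed in wild type and 2566 (15.7%) in IKK2 KO, beside 445 in p65 KO. The test of the difference called 1325 genes against wild type, 664 with a higher step in p65 KO and 661 with a lower one, and 1152 against IKK2 KO, 441 and 711. Neither split was stable: with upper-quartile scaling they were 778 and 538 against wild type and 647 and 546 against IKK2 KO, and with protein-coding genes alone 555 and 728 against wild type and 421 and 775 against IKK2 KO. Irf1, a transcription factor of the interferon pathway, stayed at 12.9 and 13.4 CPM and then 12.8 and 13.8 CPM in p65 KO, while it went from 117 CPM in both libraries to 16.2 and 15.6 CPM in wild type, a difference of 2.88 ± 0.10 (adjusted p = 2.4e-25). Zfp36, which destabilises cytokine mRNAs, was at 11.5 and 9.87 CPM and then at 9.51 and 9.34 CPM in p65 KO, and its step differed by 2.38 ± 0.12 from wild type (adjusted p = 2.3e-19) and by 2.29 ± 0.14 from IKK2 KO (adjusted p = 5.2e-17). In the other direction, Has2, a hyaluronan synthase, stood at 93.5 and 94.7 CPM and then at 95.7 and 98.7 CPM in p65 KO, while wild type went from 3.62 and 2.97 CPM to 39.9 and 36.6 CPM, a difference of −3.48 ± 0.11 (adjusted p = 2.6e-27). The p65 KO line began the interval far above wild type for Has2 and far below it for Irf1 and Zfp36.

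Genes that rose in p65 KO were compared with the same step elsewhere. Ccl2 differed by 1.29 ± 0.15 from wild type (adjusted p = 7.3e-09), where it fell by 0.33, and by 0.73 ± 0.15 from IKK2 KO (adjusted p = 0.00047). Traf1 differed by 0.88 ± 0.15 and 0.83 ± 0.14 (adjusted p = 2.4e-05 and 5.3e-05), with values in wild type of 11.04 and 9.32 CPM and then 8.91 and 10.5 CPM. Cxcl10 differed by 1.01 ± 0.21 and 0.76 ± 0.18 (adjusted p = 0.00084 and 0.00455). The second of these missed the threshold without the first 45-min library of p65 KO (adjusted p = 0.081). Lif rose in every line, by 0.73 ± 0.05 in wild type and by 2.18 ± 0.10 in IKK2 KO. Its step in p65 KO differed from wild type by 0.20 ± 0.10 (adjusted p = 0.24) and from IKK2 KO by −1.25 ± 0.13 (adjusted p = 2.3e-09). Levels at 90 min remained apart, with Lif at 73.1 and 72.5 CPM and Ccl2 at 48.4 and 50.9 CPM in wild type.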

How the data were processed

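RNA from 18 fibroblast libraries (9 groups of 2) was sequenced as paired reads of 76 bases with a directional kit, per the labels. The deposited values are expected counts per gene, not normalized, of which 31.8% of the non-zero values are not whole; FastQC 0.11.8, Trimmomatic, HISAT2, featureCounts, Subread 1.6.2, edgeR 3.26.4 and GRCm38 are named per the submitters' processing notes. How the counting handled strand and multi-mapping reads, and which annotation it used, is not given in the sources, so overlapping, antisense and near-identical genes are uncertain.

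Counts were rounded to whole numbers. Genes were filtered (filterByExpr), scaled by TMM and tested with edgeR 4.0.16 (quasi-likelihood, robust, R 4.3.3), fitting each of the 9 groups its own coefficient with all 18 libraries, and Benjamini-Hochberg adjustment over 16322 genes at 0.05. Every adjusted p is from this fit or an alternative. The alternatives used the same edgeR test, apart from those run with limma 3.58.1 or DESeq2 1.42.0. CPM values use TMM library sizes, a fold change is log2 of 90 over 45 min, and ± is its standard error. The difference between lines is an interaction contrast in the same fit. On simulated counts for this comparison, over 14009 genes, 98% of genes planted at 1.5-fold were recovered, with 7 false among 206 calls. Planted changes were 1.5- to 8-fold, in genes of at least 2 CPM, with the spread estimated from these same libraries. Smaller changes were not planted, and the protein-coding genes called higher had a median of 0.20 on the log2 scale. The simulation therefore cannot speak for calls of that size.

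Genes named are the 15 largest called changes in each direction with at least 2 CPM and no overlap between times, the 8 largest in each direction for each difference (predicted and clone names such as Gm and Rik symbols left out of both), and for each list up to 4 called members or else the 2 most abundant. Lists had 30 sets and 7 marker sets. The comparison and the lists were chosen with earlier results of these data known. The alternatives comprise other scalings, filters, tools and sets of libraries, and each library left out. The values of 1 called member each of the adhesion and inflammatory effectors and the cholesterol synthesis genes are not reported here.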

Additional observations from a re-analysis of the deposited data

Results flagged for a closer look

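The 45 to 90 min step of p65 KO differed from that of wild type in 1325 genes and from that of IKK2 KO in 1152, each by a test of the difference between lines (edgeR). The values below are differences on the log2 scale, p65 KO minus the other line, for the genes named by size.

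Against wild type the step was higher in p65 KO for Tnfaip3 (3.64), Irf1 (2.88), Edn1, which encodes endothelin-1 (2.67), Map3k8, a kinase upstream of ERK (2.64), Zfp36 (2.38) and Egr1 (2.25). It was lower for Has2 (−3.48), Gja4, a gap junction connexin (−2.27), Hivep3 (−1.77), Vegfa (−1.73), Sema7a (−1.69), Wnt11 (−1.68), Id4 (−1.65) and Sox9 (−1.57). Id4 lost its call without either 45-min or the first 90-min library of wild type (adjusted p up to 0.156), and Sema7a without the second 45-min library of p65 KO (0.151). Cxcl1 had 26 counts over both wild-type libraries at 45 min and 0 at 90 min, at least 9.27-fold lower with a floor of 3 counts over the group, and its difference had an adjusted p of 1.71e-05. Prex2 had 0 counts over both p65 KO libraries at 45 min and 9 at 90 min, at least 2.71-fold higher by the same floor, and its adjusted p was 0.0151 against wild type and 0.0193 against IKK2 KO. Both calls were lost with DESeq2 and without either 45-min or the second 90-min library of p65 KO (adjusted p up to 0.138 and 0.161).

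Against IKK2 KO the step was higher in p65 KO for Egr1 (2.88), Zfp36 (2.29), Fos (2.22), Tcim (1.89), Btg2, an antiproliferative gene (1.88), Tnfaip3 (1.67) and Ppm1k (1.61). It was lower for Atoh8 (−2.36), Vwa1 (−2.11), Lfng (−2.03), Rgs2, a regulator of G-protein signalling (−1.87), Id2 (−1.73) and Dlx2 (−1.71). Selp (adjusted p = 0.0107) and Xist (adjusted p = 0.00452) had at most 3 counts in a group of IKK2 KO, so no fold is given for them. With DESeq2 these calls and that of Vwa1 were lost. They were also lost with single IKK2 KO libraries left out: Selp without the second 45-min or first 90-min one (adjusted p up to 0.198), Xist without the first 45-min or second 90-min one (up to 0.11), and Vwa1 without either 45-min or the second 90-min one (up to 0.0910).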

How the results depend on the processing

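No paired analysis was possible because the columns carry no replicate numbers. DESeq2 called 174 genes, 157 higher and 17 lower, of which 168 were among the 445, with 18 at least 2-fold, and 721 and 667 for the differences from wild type and IKK2 KO. With 1 library left out the calls were 164 to 226, with 146 to 210 higher, 14 to 39 lower and 18 to 34 at least 2-fold. The lowest count came without the second 45-min library. Without 1 library the differences numbered 927 to 1219 and 844 to 1013. With only the 6 p65 KO libraries, 616 genes were called, 471 higher and 145 lower. At least 2-fold changes numbered 6 among protein-coding genes fitted alone, and 10 without mitochondrial, small nuclear, TEC and intronic features, a choice made after seeing the data. Fewer genes were tested in both. With upper-quartile scaling the difference from wild type split into 778 higher and 538 lower, beside 664 and 661, and that from IKK2 KO into 647 and 546, beside 441 and 711. Among genes named by the rule, 30 of 75 kept their call in every alternative for the 45 to 90 min step, 13 of 16 for the difference from wild type and 12 of 16 for that from IKK2 KO. None of these named calls reversed its direction in the alternatives run; the other calls were not followed gene by gene. Depth limits scarce genes: the standard error was 0.18 for Alkbh2 and 0.02 for Ptgs2.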
